A study of Mus musculus with 4 samples.

Results

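Reep6 encodes receptor accessory protein 6, a small membrane protein of the endoplasmic reticulum (ER). Proteins of the REEP family sit in the ER membrane as hairpins and help to give ER tubules and vesicles their shape. REEP6 is best known from rod photoreceptors, where its loss causes retinitis pigmentosa, and from sperm, whose form and function are disturbed in mice without it. The binding of IGF2BP3, an RNA-binding protein of the IGF2 mRNA-binding family, along the Reep6 mRNA was described here from eCLIP-seq of adult mouse testis. In eCLIP-seq, RNA that UV light has crosslinked to a protein is immunoprecipitated with it (IP) and sequenced, and RNA from the size-matched input (SMInput), kept from the same lysate without immunoprecipitation, serves as the background. All 4 libraries came from testes of 8-week-old wild type C57BL/6 mice, which held germ cells and somatic cells together. They formed 2 replicates, each with 1 IP library made with the IGF2BP3 antibody and 1 SMInput library. The deposited table of each replicate lists clusters of reads with their position, strand, log2(fold change) of IP over SMInput and −log10(P).

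The gene was chosen by its measured binding in these tables, so its values are a description and were not tested. A cluster was counted for Reep6 when its centre lay inside the gene, chr10:80329953-80336441 on the plus strand of mm10, and the cluster was on that strand. This gave 41 of 337234 clusters in replicate 1 and 35 of 216354 in replicate 2. The study's rule, under which a cluster is significant when both its log2(fold change) and its −log10(P) reach 2, was used throughout. In replicate 1, 35 of the 41 Reep6 clusters were significant, in a table in which 4.92% of all clusters were. In replicate 2, 35 of 35 were significant, against 13.2% of all clusters. The binding on Reep6 was therefore spread over many adjoining clusters, most of which passed the call in both replicates. The 6 clusters of replicate 1 that were not called lay in exons 3 and 4 and missed only the fold threshold, with log2(fold change) values from 1.79 to just under 2 and −log10(P) values of at least 6.50. The members just inside the threshold had log2(fold change) values of 2.05 in replicate 1 and 2.101 in replicate 2, both in exon 1.

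All 76 clusters had their centre in an exon. None lay in an intron in either replicate, although introns held the centre of 57.6% of all clusters in replicate 1 and 46.7% in replicate 2. No cluster was listed on the opposite strand within the gene. Exons are numbered here after the full-length form that keeps every exon, with 6 exons and 2208 bases. Exon 5, of 81 bases, is an alternative exon that is kept in the form known from rods and skipped in others. The coding sequence of the form with exon 5 has 201 codons, and that of the form without it has 174. In both, translation starts in exon 1 at chr10:80330231 and ends at the start of exon 6, where the stop codon lies at chr10:80335115-80335117. Nearly all of exon 6 is thus 3′UTR, 1324 bases of it, in these forms.

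The annotation also holds transcripts with another reading frame, which begins 220 bases upstream in exon 1 and ends only at chr10:80336091. Their coding sequence runs over most of the 3′UTR of the other forms. Where transcripts differed, a position was read as 3′UTR before CDS and as CDS before 5′UTR. On this rule, 19 significant clusters of replicate 1 and 21 of replicate 2 lay in the CDS. Among all clusters with the centre in a CDS, 5.28% were significant in replicate 1 and 7.96% in replicate 2. The 3′UTR held 16 significant clusters in replicate 1 and 14 in replicate 2, where 19.4% and 34.5% of all 3′UTR clusters were significant. With CDS placed before 3′UTR, only 1 significant cluster per replicate was left in the 3′UTR and 34 per replicate fell in the CDS. The split into CDS and 3′UTR therefore rests on which reading frame is taken, whereas the positions do not. In the frame with 201 codons, 1 cluster of each replicate lay in the 5′UTR.

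**Figure D1:**
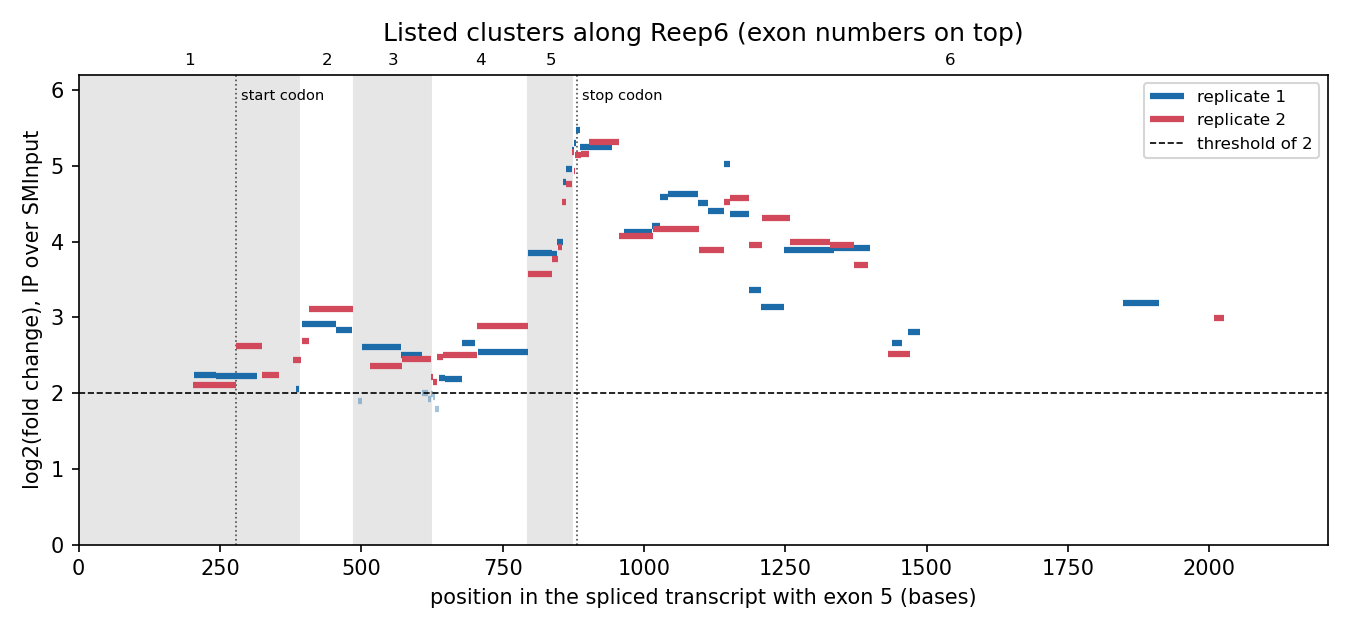
Listed Reep6 clusters of both replicates, drawn as bars over the bases they cover (x axis, position in the spliced transcript with exon 5) at their log2(fold change) of IP over SMInput (y axis), with pale bars for clusters that were not called. The values stay between 1.79 and 3.10 in exons 1 to 4, climb through exon 5 and are highest around the stop codon, at 5.47 in replicate 1 and 5.31 in replicate 2.

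The fold change differed along the transcript far more than between the replicates. In exon 1, the log2(fold change) lay between 2.05 and 2.23 in replicate 1 and between 2.101 and 2.62 in replicate 2. Exon 2 ran from 2.83 to 2.91 in replicate 1 and from 2.69 to 3.10 in replicate 2. Exon 3 ran from 1.90 to 2.61 and from 2.21 to 2.45, and exon 4 from 1.79 to 2.66 and from 2.15 to 2.89. The ranges of exons 1, 3 and 4 overlapped in each replicate, so these exons had no clear order, while exon 2 was above exons 1 and 3 in both. In exon 5 the values rose to between 3.84 and 5.21 in replicate 1 and between 3.57 and 5.19 in replicate 2, with no overlap with any of exons 1 to 4. With both thresholds at 3 instead of 2, exons 1 to 4 had 0 significant clusters in replicate 1 and 1, in exon 2, in replicate 2, so that calls in both replicates were left only in exons 5 and 6. Exon 6 covered the widest range, from 2.66 to 5.47 and from 2.52 to 5.31. The mean over covered bases followed the same pattern. It was 2.22 in exon 1, 2.43 in exon 4, 4.14 in exon 5 and 4.02 in exon 6 of replicate 1. In replicate 2 it was 2.295, 2.69, 3.94 and 4.11.

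Within exon 5 the rise was stepwise and nearly the same in both replicates. The first 42 bases, chr10:80334713-80334754, formed a cluster of the same extent in both, with a log2(fold change) of 3.85 in replicate 1 and 3.57 in replicate 2. The last 3 bases, chr10:80334791-80334793, were again a cluster of the same extent in both, at 5.21 and 5.19. Across the splice junction, the first cluster of exon 6 had 5.30 in replicate 1 and 4.93 in replicate 2. The highest value of replicate 1, 5.47, belonged to chr10:80335113-80335120, a cluster of 8 bases that holds the stop codon. The highest of replicate 2, 5.31, belonged to chr10:80335137-80335188, which starts shortly after the stop codon. The replicates thus shared the maximum around the end of the coding sequence but not the cluster that carried it, and the values there, from 4.93 to 5.47, lay close together. Among significant clusters with no fewer SMInput reads than these, taking the fewest reads where only those are known, 4 of 1731 in replicate 1 and 7 of 2274 in replicate 2 had a higher log2(fold change).

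Bases whose log2(fold change) reached 4.5 in both replicates formed 3 stretches, 97 bases in all. They were chr10:80334774-80334793 at the end of exon 5, chr10:80335110-80335176 at the start of exon 6 and the 10 bases of chr10:80335375-80335384 further into the 3′UTR. The first 2 stretches adjoin in the spliced mRNA and run across the last splice junction and the stop codon. The short stretch stood above its surroundings in replicate 1, at 5.02 between neighbours of 4.41 and 4.37. In replicate 2 it had 4.52 between 3.89 and 4.57, so it was higher than only the cluster before it.

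The 3′UTR was bound in its first part. Counted from the base after the stop codon, 89.5% of bases 1 to 200 lay under significant clusters of both replicates. This was 100% for bases 201 to 400 and 65.5% for bases 401 to 600. Of the bases beyond 600, none did. The mean log2(fold change) over covered bases fell over these 3 windows, from 4.66 to 3.98 and 3.64 in replicate 1 and from 4.53 to 4.18 and 3.55 in replicate 2. In the distal part, replicate 1 had a cluster at chr10:80336080-80336144 with 3.20, and replicate 2 had one at chr10:80336241-80336259 with 2.99. These did not overlap, and each was listed in a single replicate only. Between chr10:80335722 and chr10:80336079, 358 bases held no cluster in either replicate, which means that no cluster was called there and not that no read was found.

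The replicates covered largely the same bases. Significant clusters lay over 1152 exon bases in replicate 1 (52.2% of 2208) and 1195 in replicate 2 (54.1%). Both replicates had a significant cluster over 1051 of them, 47.6% of the exon bases, 91.2% of those of replicate 1 and 87.9% of those of replicate 2. Of the significant clusters, 34 of 35 in replicate 1 met a significant cluster of replicate 2, and 31 of 35 did so in the other direction. By exon, the share of bases covered in both was 29.8% in exon 1, 93.6% in exon 2, 66.9% in exon 3, 91.1% in exon 4, 100% in exon 5 and 38.9% in exon 6. Exon 5 was thus the only exon covered from end to end in both. Over the 1080 bases with a cluster in both replicates, the listed log2(fold change) values had a Pearson's r of 0.930. These bases share clusters with their neighbours and are not independent points. The median difference, replicate 2 minus replicate 1, was 0.0029, and the largest was 1.18.

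Cluster edges often coincided with exon edges. Of the 12 first and last bases of the 6 exons, 6 were also the edge of a cluster in replicate 1 and 6 in replicate 2. In both replicates these included both ends of exon 5 and the first base of exon 6. The clusters were narrow, with a median width of 21 bases in replicate 1 and 31 in replicate 2, against 42 and 47 over all clusters. Adjoining clusters can count the same reads, so the number of clusters on Reep6 is not a number of separate binding events.

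**Figure D2:**
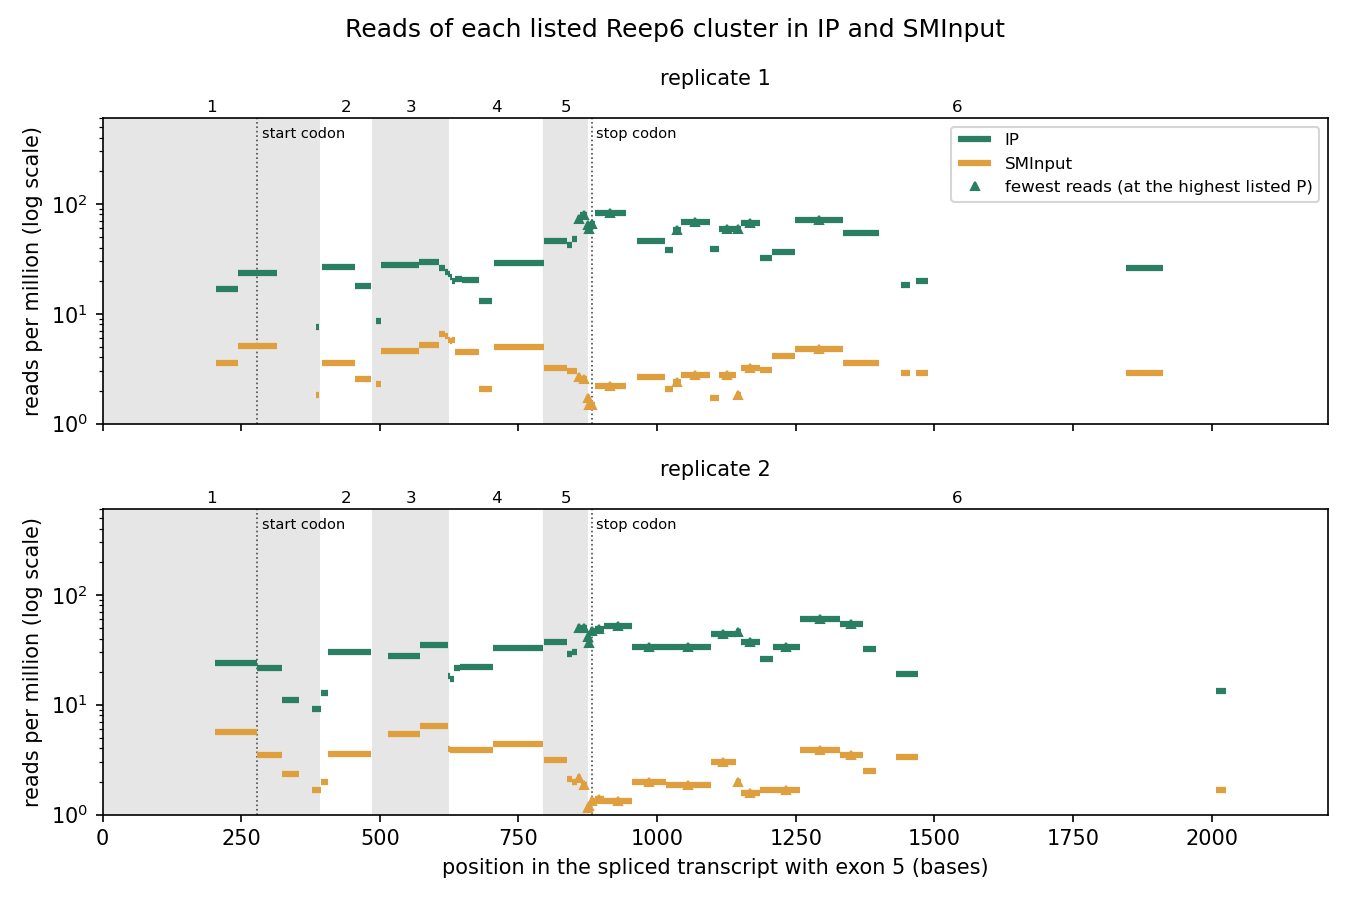
Reads of each listed Reep6 cluster scaled to 1000000 reads of its library (y axis, log scale) over the bases it covers in the spliced transcript with exon 5 (x axis), for IP and SMInput of each replicate. Triangles mark the 12 clusters of replicate 1 and 15 of replicate 2 with the highest listed −log10(P). For these, the fewest reads above the cut-off given in the text are drawn, and the true level may be a multiple. The IP bars lie above the SMInput bars at every cluster.

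The listed values are ratios of whole reads, which allowed the reads behind each cluster to be worked out. The library totals were 5133438 IP and 8706391 SMInput reads in replicate 1, and 4637612 IP and 16696122 SMInput reads in replicate 2. For 12 clusters of replicate 1 and 15 of replicate 2 the −log10(P) stood at the highest listed value, 400. There the ratio of the reads is fixed but not their number. The fewest reads were taken that give this ratio and a −log10(P) above a cut-off, 88.2 in replicate 1 and 88.0 in replicate 2. The cut-off is the highest chi-square value listed below 400 with solved reads. Reep6 clusters were deep, with medians, at these smallest numbers, of 164 IP and 26 SMInput reads in replicate 1 and 152 and 36 in replicate 2. Significant clusters over the whole tables had medians of 13 IP and 3 SMInput reads in replicate 1 and 8 and 4 in replicate 2. No Reep6 cluster had fewer SMInput reads than 13 in replicate 1 or 19 in replicate 2, so none of its fold changes rested on a few background reads. Clusters with a −log10(P) of 400 were listed in 19 protein-coding gene records in replicate 1 and 52 in replicate 2.

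Clusters with exact reads show how IP and SMInput differed between exon 3 and exon 5. In replicate 1, the 37 bases of chr10:80333772-80333808 in exon 3 had 151 IP and 45 SMInput reads, and the first 42 bases of exon 5 had 238 and 28. In replicate 2, the 50 bases of chr10:80333774-80333823 in exon 3 had 161 IP and 106 SMInput reads, and the same 42 bases of exon 5 had 172 and 52. Between these clusters the IP was higher in exon 5 in both replicates, and the SMInput was lower in both. In replicate 2 the other 2 clusters of exon 5 with exact reads, of 10 and 8 bases, had 133 and 139 IP reads, fewer than the cluster of exon 3. Over all listed clusters of the exon, the median of the IP reads per 1000000 was 25.03 in exon 3 and at least 55.7 in exon 5 in replicate 1, and 27.8 and at least 39.2 in replicate 2. The median of the SMInput reads per 1000000 was 5.46 in exon 3 and at least 2.81 in exon 5 in replicate 1, and 5.45 and at least 2.04 in replicate 2. The SMInput medians of exon 5 are lower limits, so they do not fix whether the SMInput of exon 5 lay below that of exon 3. In replicate 1, the 8 bases of chr10:80333695-80333702 in exon 3 had 20 SMInput reads, fewer than the 28 at the start of exon 5. The size of each difference thus depended on the clusters compared. So did the direction of that of the IP in replicate 2 and of that of the SMInput in replicate 1. The clusters compared differ in width, to which the reads were not scaled, and the effect of width was not tested. In the 3′UTR, the 49 bases of chr10:80335198-80335246 had 237 IP and 23 SMInput reads in replicate 1, close to the start of exon 5. The 56 bases just after the stop codon, chr10:80335121-80335176, had at least 424 and 19. In replicate 2, the cluster with the highest fold change had at least 243 IP and 22 SMInput reads over 52 bases. How much of the SMInput pattern goes back to exon use, fragment ends or read alignment at the junction was not tested.

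The sequence around the last splice junction is shown because it carries the highest value of replicate 1 and values up to 5.19 in replicate 2, whose highest cluster starts further on. It joins the last 15 bases of exon 5, chr10:80334779-80334793, and the first 15 of exon 6, chr10:80335110-80335124, on the plus strand of GRCm38 (mm10). Capitals mark a TGGAC at the end of exon 5 and the stop codon.
exon 5 to exon 6 junction: ctctggaacTGGACcccaagTAAagtcaga
The other sequence shown lies in the 3′UTR at chr10:80335295-80335324, under clusters whose log2(fold change) was 4.63 in replicate 1 and 4.17 in replicate 2. It belongs to a run of 6 copies of CACA, marked by capitals, that follow each other at a step of 6 bases and end at chr10:80335328.
CACA run: CACAacCACAacCACAacCACAacCACAac
The window at the middle of the highest cluster of replicate 2, chr10:80335148-80335177, and that around the short stretch in the 3′UTR, chr10:80335365-80335394, held none of the motifs searched. The first of these clusters does hold a CACA, at chr10:80335139-80335142, before the window. The windows are given for comparison.
middle of the highest cluster of replicate 2: ggaggtctgctggcagtctgtgtgcggatt
10-base stretch: cccctcacgggccacgaatgggcagtcccc

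The motifs searched on the strand of the transcript were GGAC and the longer TGGAC that contains it, the motifs named in the study, GAACA as well as AAACC, and the short motif CACA. In windows of 30 bases at the centre of significant clusters, CACA was found in 8 of 16 Reep6 windows in the 3′UTR in replicate 1 and in 6 of 14 in replicate 2. Among all such 3′UTR windows it was found in 12.0% and 10.5%. In the CDS it was in 2 of 19 and 3 of 21 Reep6 windows, beside 13.5% and 11.7% of all. TGGAC was in 3 of 19 and 2 of 21 CDS windows, beside 3.99% and 4.02% of all, and in 0 of the 3′UTR windows, beside 2.80% and 2.54%. GGAC was in 4 of 19 and 2 of 21 CDS windows, beside 10.5% and 10.1% of all, and in 1 of 16 and 1 of 14 of the 3′UTR, beside 7.95% and 7.28%. GAACA and AAACC were in 0 Reep6 windows of either region. They were rare in all windows too, GAACA in between 1.505% and 3.33% and AAACC in between 1.61% and 2.55% by region and replicate, so 0 in so few windows is near the background. Windows of adjoining clusters overlap, so a single site can be counted more than once. Along the whole spliced mRNA, CACA occurred 33 times. Of these, 14 lay wholly under significant clusters of both replicates, 13.3 per 1000 bases, beside 16.4 per 1000 bases elsewhere. The distal 3′UTR, which had hardly any cluster, held many of the others. GGAC occurred 13 times, 8 of them wholly under significant clusters of both, or 7.61 per 1000 bases beside 4.32 elsewhere. None of the 3 GAACA and 2 AAACC sites lay wholly under them, although the GAACA at chr10:80330267-80330271 began on a base covered in both and lay under a significant cluster of replicate 2. The G and C content was 61.2% under significant clusters of both replicates and 62.7% in the other exon bases.

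Among 21951 protein-coding gene records, 4814 (21.9%) had a significant cluster in both replicates. By the share of exon bases under significant clusters of both, Reep6 ranked 4, after St6galnac2 with 63.2%, Gm5142 with 60.4% and Prr27 with 54.2%. St6galnac2 has another gene record, at 16.8%, and by number of significant clusters its 2 records take ranks 1 and 2. In 1947 records at least 1 base was covered in both, and their median share was 2.39%. By the covered share in 1 replicate alone, its rank was 8 in replicate 1 and 11 in replicate 2. By the number of significant clusters, the smaller of the replicates, Reep6 ranked 6. By the highest fold change it ranked 27, since its largest smaller log2(fold change) over overlapping clusters was 5.24. Over both replicates, Reep6 thus ranked higher by the extent of its binding than by its height. It was chosen with these values known, and the ranks are no test.

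**Figure D3:**
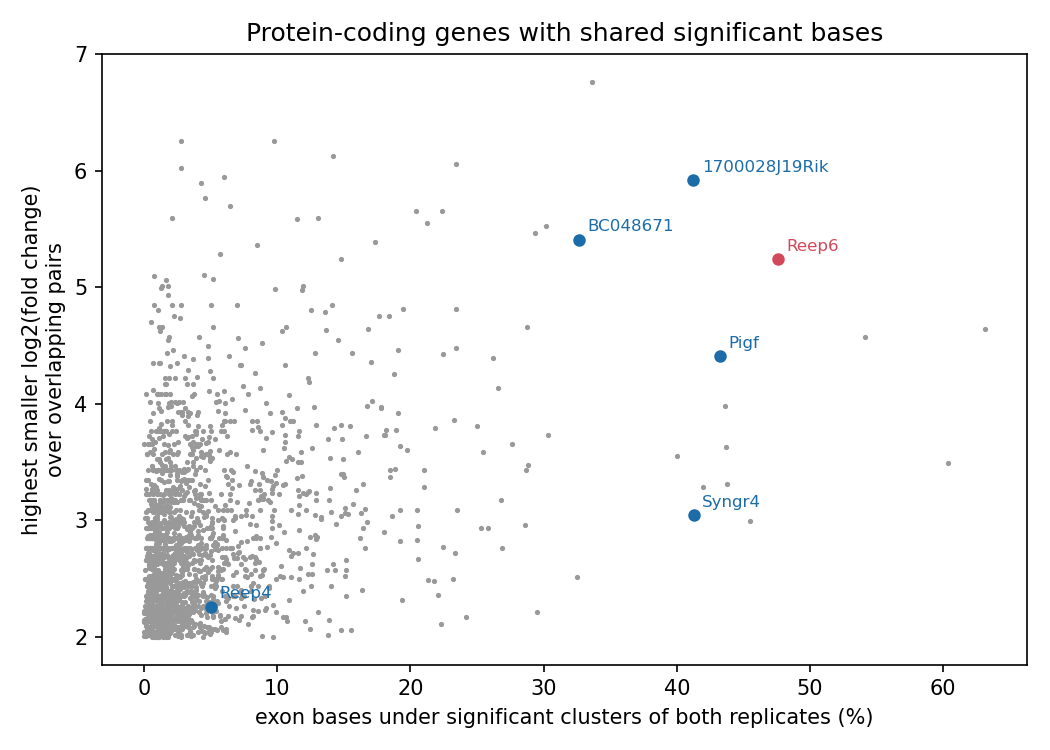
Protein-coding genes with shared significant bases, 1 dot a gene record, by the share of exon bases under significant clusters of both replicates (x axis, %) and the highest smaller log2(fold change) over overlapping clusters (y axis). Reep6 lies at 47.6% and 5.24, and blue dots mark Reep4 and the 4 genes most like Reep6 in covered CDS and 3′UTR.

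The genes most like Reep6 were found by the Euclidean distance over 4 values, the covered shares of CDS and of 3′UTR in each replicate, among 4791 other gene records. In Reep6 these were 67.2% of CDS and 45.1% of 3′UTR in replicate 1, and 75.8% and 43.0% in replicate 2. The nearest was 1700028J19Rik, at a distance of 7.69 percentage points, with 70.8% and 39.7% in replicate 1 and 74.4% and 39.0% in replicate 2. Like Reep6, it had clusters with the highest listed −log10(P), 7 in replicate 1 and 11 in replicate 2. Pigf, which encodes an enzyme subunit of GPI anchor synthesis in the ER, followed at 12.0. Syngr4, a synaptogyrin, was at 25.1 and BC048671 at 25.5. The likeness was therefore close for few genes.

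The other REEP genes had far fewer significant clusters. All 6 members of the family had clusters in both replicates, and 4 had a significant cluster in both, Reep1, Reep3, Reep4 and Reep6 itself, beside 21.9% of all protein-coding gene records. Without Reep6, which was chosen by its binding, this was 3 of 5. The median number of significant clusters over these 5 was 1 in replicate 1 and 3 in replicate 2, beside 0 and 0 over all protein-coding gene records. Reep4, an ER protein that acts in clearing ER from chromosomes in mitosis, was the only other member with shared significant bases. These were 5.01% of its exon bases, with highest log2(fold change) values of 2.26 in replicate 1 and 3.11 in replicate 2. Reep1, the gene of a hereditary spastic paraplegia, had 4 significant clusters of 88 in replicate 1 and 6 of 61 in replicate 2, with 0 shared bases. Of these Reep1 clusters, 1 of replicate 1 lay in the CDS and 1 in the 3′UTR, while 0 of replicate 2 lay in either. Reep3 had 1 significant cluster of 14 and 3 of 7, also with 0 shared bases. Reep2 and Reep5 had 2 and 1 significant clusters in replicate 1 and 0 in replicate 2.

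Among 16 other genes of ER shape, 11 had a significant cluster in both replicates, beside 21.9% of all protein-coding gene records, and 3 had none in either. For this count a cluster could lie anywhere in the gene, and those of the 2 replicates did not have to overlap. Over the 16 genes, the median number of significant clusters was 2.5 in replicate 1 and 5 in replicate 2, beside 0 and 0 over all records. Rtn3, a reticulon that curves ER tubules, had the most, 13 and 17. They lay mainly in the 3′UTR, 29.9% and 38.2% of which were covered, and 8.70% of its exon bases were covered in both. Spast, a microtubule-severing enzyme with an ER-bound form, had the highest smaller log2(fold change) over overlapping clusters, 3.50, with 8 and 9 significant clusters. Arl6ip1, an ER membrane protein with hairpins like those of the REEPs, had 4 and 8 and covered 5.85% of its exon bases in both. Tmcc1, Ckap4, Rtn1, Atl3 and Rtn4 followed, with smaller log2(fold change) values between 2.00 and 2.26 and shares between 0.486% and 1.95%. Rrbp1, Tmem33 and Atl2 were also among the 11, but with 0 shared bases. None of these genes came near the 47.6% of Reep6.

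The 4 genes next to Reep6 were not called, as was so for most protein-coding gene records, of which 21.9% had a significant cluster in both replicates. Pcsk4, the gene of a proprotein convertase of germ cells, which lies just before Reep6 on the minus strand, had 13 clusters in replicate 1 and 21 in replicate 2, of which 0 were significant. Adamtsl5 had 0 and 1 cluster and Plk5 1 and 0, again with 0 significant, and Apc2 had none in either table.

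Clusters are listed where reads pile up, so they show which RNAs were present but give no expression level. Of the marker genes of testis cells, all had clusters in both replicates: 6 of 6 for spermatids, 4 of 4 for spermatocytes, 4 of 4 for spermatogonia, 4 of 4 for Sertoli cells and 5 of 5 for Leydig cells. Significant clusters in both replicates were found for 2 of the 6 spermatid markers, Acrv1 and Spaca1, and for 2 of the 4 spermatogonial markers, Kit and Zbtb16. For spermatocytes, Sertoli cells and Leydig cells the count was 0. Over all markers this was 4 of 23, near the 21.9% of all protein-coding gene records, and is no result about a cell type. In replicate 1 only, the Leydig markers Hsd3b1 and Star had a significant cluster. In replicate 2 only, the Leydig markers Insl3 and Cyp11a1, the spermatocyte marker Sycp1, the spermatogonial marker Stra8 and the Sertoli marker Wt1 had one. Acrv1, an acrosomal protein gene, was covered in both replicates over 10.4% of its exon bases. Kit had 7 shared bases, and Spaca1 and Zbtb16 had 0. The protamine and transition protein genes Prm1, Prm2, Tnp1 and Tnp2, which are among the most abundant mRNAs of spermatids, had between 7 and 10 clusters each and 0 significant ones. The cell type from which the Reep6 reads came was not tested, and more Reep6 RNA per cell cannot be told apart from more cells that contain it.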

How the data were processed

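IGF2BP3 IP and SMInput of mouse testis were used in 2 replicates. The authors demultiplexed and trimmed the reads (cutadapt), removed ribosomal RNA reads (Bowtie2), aligned to mm10 (STAR), collapsed PCR duplicates by molecular identifiers, called clusters with Clipper and set IP against SMInput. In the deposited tables, the −log10 column holds the P value that the authors computed, and the deposited log2 column holds their fold change of IP over SMInput, both used only to describe and filter clusters. A −log10(P) of 400 is the highest listed value. Genes and regions were taken from the basic set of GENCODE M21, and sequences from RefSeq's GRCm38. Library totals and reads were solved as whole numbers that return the listed ratio within a relative tolerance of 1e-12 and the listed −log10(P) within 0.0002, with Yates-corrected chi-square tests, or Fisher's exact test below an observed or expected number of 5. Within these tolerances, a single solution was found for 99.7% and 99.5% of clusters with a −log10(P) between 0 and 400. The procedure was tested on simulated data. Python 3.11.15, numpy 2.4.6, pandas 2.3.3, scipy 1.17.1 and matplotlib 3.10.9 were used. The named genes were the REEP family, 16 ER-shaping genes, the neighbouring genes and the 5 nearest genes by covered shares, of which 1 is not reported here. From each list, those significant in both replicates were named, up to 8 by the highest smaller log2(fold change) over overlapping clusters. Reep2, Reep5, Rrbp1, Tmem33, Atl2 and the 4 neighbours were added after their values were seen. Testis markers were counted, and those named were chosen after their values were seen. The members and lists were chosen with earlier results of these data known. Alternatives changed thresholds, gene and region rules, overlap, ranking and replicates. No test was made, since Reep6 was chosen by these values.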

Additional observations from a re-analysis of the deposited data

How the results depend on the processing

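No paired analysis was possible because the results come from no test, and each listed value is itself a comparison of IP with SMInput within its replicate. Of 31 alternatives, 20 kept the main value, counts and ranks within 1.5 times and the highest log2(fold change) within 1 SD over the 2 replicates, and 11 did not. With both thresholds at 3, 22 Reep6 clusters were significant in replicate 1 and 21 in replicate 2, where 1.18% and 2.42% of all clusters passed, and all but 1 of these Reep6 clusters lay in exons 5 and 6. With CDS before 3′UTR, the CDS held 34 significant clusters in each replicate and the 3′UTR 1 in each, since the longer reading frame then takes the 3′UTR. Curated RefSeq transcripts gave 18 and 20 in the CDS. The count per replicate was 35 with either replicate left out, and the highest log2(fold change) was between 5.31 and 5.47, a difference over 1 SD that counts among the 11. With 2 replicates, leaving out the one with the higher value always moves it by over 1 SD, so this says nothing on how stable it is. Shared bases went from 1051 to 982 with an overlap of at least 50% of the narrower cluster and to 814 with 50% of each. A replicate alone has no shared bases. The alternatives with a replicate left out gave all bases under significant clusters of the other, 1152 in replicate 1 and 1195 in replicate 2. The rank of Reep6 was 27 by fold change and between 8 and 11 in a replicate alone. By numbers of clusters, only 1 of the 5 nearest genes was again among the 5. The cause was not tested. The reads had no alternative, and motif counts were given for each replicate. Clusters at the highest −log10(P) limit the reads to a smallest number.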
